A study of Mus musculus with 32 samples.

Results

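Serpina3n and Serpina3m are neighbouring genes of the mouse Serpina3 cluster, and they were 2 of the 20612 genes listed in a series on bisphenols in differentiating stem cells. They were chosen on these data for their rise in embryoid bodies at day 20 and their lower level with bisphenols. No stage was named for the lower level, which is read here as that at day 20. At day 20 both patterns are therefore given as values without a test. Both were found by gene symbol through the Entrez identifiers of the deposited tables (20716 for Serpina3n and 20717 for Serpina3m). RNA was sequenced from embryonic stem cells (ESCs) of the mouse line J1, of strain 129S4/SvJae, and from cells derived from them. Cultures were exposed to 1 of 3 bisphenols (A, F and S, here BPA, BPF and BPS), each at 100 nM, or received the solvent DMSO. Libraries came from ESCs at day 0, from embryoid bodies (EBs, floating aggregates that differentiate without a directing factor) at days 4, 6, 9, 12 and 20, from EBs at day 8 that had spent 4 days in retinoic acid (RA EBs), and from neural progenitor cultures (NPCs) at day 10. Each of the 8 stages had 4 libraries, 1 per treatment, which makes 32 in all. Treatments were not replicated within a stage, all samples derive from the J1 line, and nothing in the labels says that libraries came from separate cultures. The p-values therefore measure the spread between these libraries only.

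Serpins are inhibitors that trap a serine or cysteine protease by a change of shape, through an exposed loop near their carboxy-terminal end. The mouse Serpina3 genes are a local expansion of the locus that in humans holds the single gene for alpha-1-antichymotrypsin. Serpina3n encodes a secreted inhibitor known for blocking granzyme B and leukocyte elastase, is made by the liver in the acute phase response, and in the brain is widely used as a marker of reactive astrocytes. Its induction is linked to cytokines of the interleukin-6 family acting through the receptor subunit gp130 and the transcription factor STAT3, to NF-kB and to glucocorticoids. Serpina3m is a less studied member of the same cluster.

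On chromosome 12 (RefSeq, GRCm38.p6, the build also named mm10 in the submitters' processing notes) Serpina3m lies at chr12:104387157-104394259 and Serpina3n at chr12:104406646-104414334, both on the plus strand and 12386 bases apart. Serpina3n closes the cluster, and Serpina3k at chr12:104338486-104345739 is the nearest protein-coding gene on the other side of Serpina3m. Each gene has 5 exons in the GENCODE vM21 annotation, with the coding sequence in exons 2 to 5. The coding sequences, of 1254 bases in each gene, were identical at 85.17% of aligned bases, with a longest identical run of 65 bases. Serpina3m was closer to Serpina3k, at 91.99% identity and a longest run of 154 bases.

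The stretches below show how far reads can tell the genes apart. They are the coding windows of 60 bases, each inside an exon, at which Serpina3n and Serpina3m differed most and least. They come from the GENCODE transcripts of GRCm38, which is the C57BL/6J reference and not the strain of these cells. Windows across an exon boundary were left out, and the identical run of 65 bases given above lies across such a boundary. Capitals mark the positions at which the genes differ. The window that differed most has 27 differing bases of 60 and lies in exon 5, at chr12:104413470-104413529 in Serpina3n and chr12:104393791-104393850 in Serpina3m.
Serpina3n, exon 5: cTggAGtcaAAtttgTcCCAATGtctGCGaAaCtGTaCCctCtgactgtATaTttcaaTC
Serpina3m, exon 5: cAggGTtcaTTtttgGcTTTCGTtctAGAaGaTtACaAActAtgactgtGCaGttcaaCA
The most alike window inside an exon has 1 differing base of 60 and lies in exon 2, at chr12:104408859-104408918 in Serpina3n and chr12:104389264-104389323 in Serpina3m.
Serpina3n, exon 2: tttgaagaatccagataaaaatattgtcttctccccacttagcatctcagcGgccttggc
Serpina3m, exon 2: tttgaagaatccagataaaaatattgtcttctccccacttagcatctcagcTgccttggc

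A read that falls within such an alike stretch can be assigned to more than one gene. Of all stretches of 100 bases in the Serpina3n transcript, 0.2% occurred in another gene's transcript and 0 in that of Serpina3m. Of those of Serpina3m, 6.09% occurred in another gene, in each case Serpina3k, and 0 in Serpina3n. With stretches of 50 bases the shares were 6.9% for Serpina3n and 19.1% for Serpina3m, of which 0.89% and 1.12% were shared between this pair. The read length is not given in the sources used here, so which of these shares applies is not known.

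The Serpina3n promoter is shown because the members moved together at 1 stage and because the factors named above have known sequence motifs. RefSeq's window runs from 250 bases before to 50 bases after the start, at chr12:104406458-104406757 on the plus strand of GRCm38.p6. Serpina3m was not among the promoters used here. Capitals mark matches to the NF-kB motif, GGG and CC with 5 bases of any kind between them.
Serpina3n promoter: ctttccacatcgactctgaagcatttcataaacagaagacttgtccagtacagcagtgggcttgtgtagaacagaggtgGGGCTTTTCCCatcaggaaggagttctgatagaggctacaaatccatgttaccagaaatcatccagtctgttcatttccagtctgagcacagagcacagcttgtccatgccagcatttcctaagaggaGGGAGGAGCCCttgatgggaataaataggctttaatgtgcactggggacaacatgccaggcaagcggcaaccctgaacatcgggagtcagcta

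On both strands together this window held 4 NF-kB matches, which overlap in pairs that begin at positions -171 and -170 and at -43 and -42, counted from the start as that table gives it. That start lies downstream of the first base of the gene given above, so the matches at -43 and -42 fall inside the annotated gene. Such a match was present in 50.79% of the 32851 windows of this length in the table. The C/EBP motif TTNNGNAA matched at 2 places (40.68% of windows have a match), and the glucocorticoid receptor motif ACANNNTGT at 1 (6.85%). The STAT motif, TTC and GAA with 3 (8.3%) or 4 (6.95%) bases between them, was not found in these 300 bases. The motifs were chosen with the expression values known, and a match or its lack says nothing about binding.

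Serpina3n was barely detected before EB day 20. Its expected count, RSEM's estimate of the reads that belong to a gene, was 0 in all 4 ESC libraries. Over the 4 libraries of a stage it summed to 4 at EB day 4, 6 at day 6, 12.04 at day 9 and 20 at day 12, and to 5 in RA EBs and 22 in NPCs. In FPKM (reads scaled to transcript length and library size), the mean of the 4 libraries was 0.0475 ± 0.0369 (SD, n = 4) at EB day 4, 0.065 ± 0.0569 at day 6, 0.135 ± 0.0988 at day 9, 0.237 ± 0.130 at day 12, 0.055 ± 0.0597 in RA EBs and 0.263 ± 0.266 in NPCs. At EB day 20 it was 245 ± 147. The order of the stage means was EB day 20, NPC, EB day 12, EB day 9, EB day 6, RA EB, EB day 4 and ESC, and below EB day 20 the libraries of each neighbouring pair of stages overlapped.

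By stage mean Serpina3m was below Serpina3n at every stage but ESC, where neither had a read. In single libraries near the floor it could be the higher, as at EB day 9 with BPF (3 reads against 1). Its expected counts over the 4 libraries summed to 1 at EB day 4, 1 at day 6, 4 at day 9 and 2 at day 12, and to 0 in ESCs, RA EBs and NPCs. A count of 0 allows up to 3 reads per library, as a matter of counting error alone. At EB day 20 the sum was 846, and the mean level 13.2 ± 9.00 FPKM (SD, n = 4). Below EB day 20 the 4 libraries of every stage included at least 1 in which Serpina3m was not listed, so the stages overlapped.

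**Figure D1:**
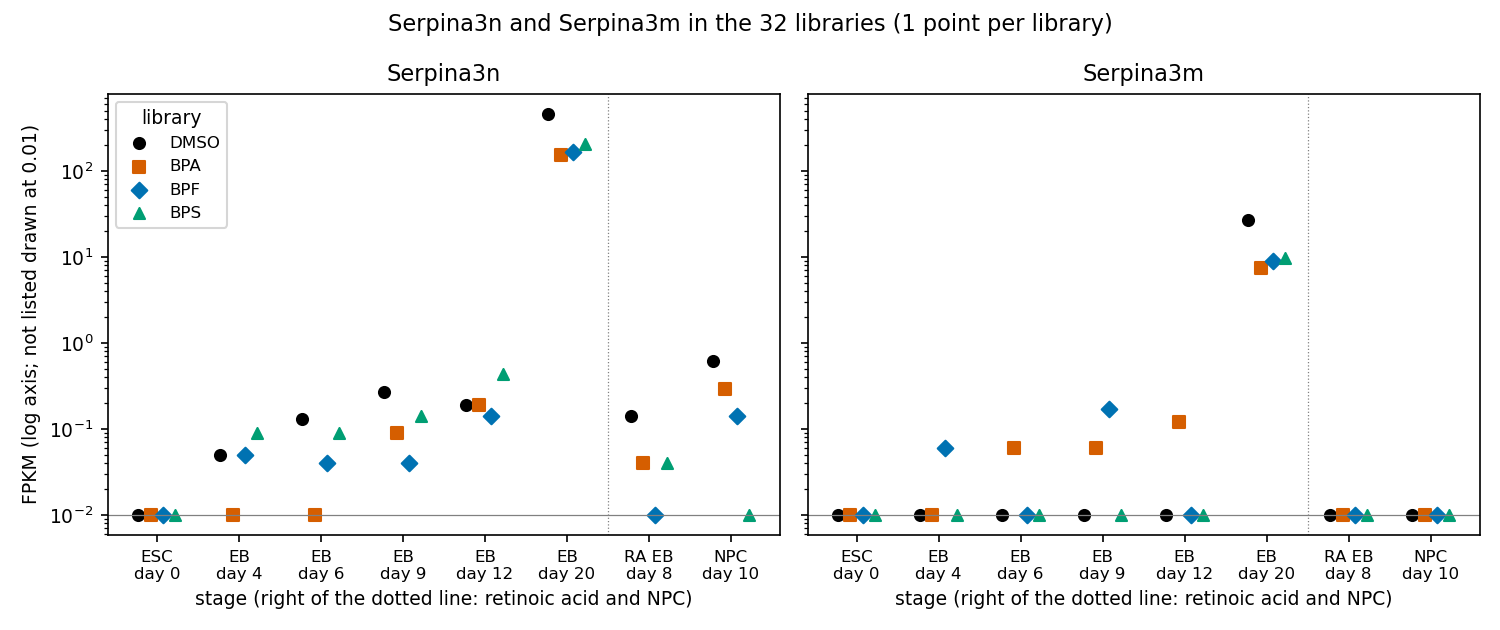
FPKM (log axis) of Serpina3n and Serpina3m in each of the 32 libraries, by stage and treatment, with genes not listed in a library drawn at 0.01. Every library of EB day 20 lies above every library of the other stages for both genes, and at EB day 20 the DMSO library is the highest of the 4.

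Between the summed counts of EB days 12 and 20, scaled to library size, Serpina3n differed 1033-fold (interval 668.5 to 1691) and Serpina3m 441-fold (121.8 to 3651); these 95% intervals cover counting error only. Against ESCs, where neither gene had a read, day 20 was at least 7254-fold higher for Serpina3n and at least 310-fold higher for Serpina3m, with a floor of 3 counts over the 4 libraries. Against NPCs the ratio was 925 for Serpina3n and at least 290 for Serpina3m. On the log2 scale the fitted differences between EB days 12 and 20 were 9.66 ± 0.42 (SE) and 7.11 ± 0.60, which rank 2 and 8 from the top among 15632 genes. In that comparison 17.4% of all genes were called higher and 8.66% lower, and since the members were picked on it nothing is read from their place.

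The other changes of stage were tested with edgeR over all genes, and a call needed an adjusted p (Benjamini-Hochberg) below 0.05 with a log2 change of at least 1. Neither gene was called in any of 7 comparisons, and 0 of these 14 values had an unadjusted p under 0.05 in edgeR, against 1 called with DESeq2. The share of all genes called was 27.5% from ESC to EB day 4, 19.0% from day 4 to 6, 14.4% from day 6 to 9, 9.58% from day 9 to 12, 34.2% from EB day 4 to RA EB, 34.9% from RA EB to NPC and 38.3% between NPCs and the mean of EB days 9 and 12. Both genes entered these tests only because of their reads at EB day 20. The largest estimate was for Serpina3n from RA EBs to NPCs, at 1.67 ± 1.04 (SE, adjusted p = 0.153 in edgeR). That step was called with DESeq2 (2.37, adjusted p = 0.0185) and in edgeR with treatment as a further term (1.65, adjusted p = 0.00574). The libraries overlapped, with expected counts in RA EBs of 3 with DMSO, 1 with BPA, 0 with BPF and 1 with BPS against 13, 6, 3 and 0 in NPCs. From NPCs to the mean of EB days 9 and 12, Serpina3n differed by 0.54 ± 0.78 with the NPCs higher (adjusted p = 0.53 in edgeR).

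At EB day 20 the DMSO library held 463 FPKM of Serpina3n, the BPA library 151, the BPF library 165 and the BPS library 202. All 3 bisphenol libraries were below the DMSO library, and BPS was the highest of them. The expected counts behind these levels were 9226, 3066, 3388 and 4113. Serpina3n thus ranked 121 of 17479 genes listed in the DMSO library by FPKM, 401 of 17733 with BPA, 366 of 17830 with BPF and 291 of 17839 with BPS. Serpina3m stood at 26.6 FPKM with DMSO, 7.34 with BPA, 8.94 with BPF and 9.79 with BPS, from expected counts of 422.1, 118.8, 146.5 and 158.6. The order of the 4 libraries was the same for both genes.

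In CPM (counts scaled to library size) the DMSO library exceeded the BPA library 3.06-fold for Serpina3n (interval 2.94 to 3.19), the BPF library 2.81-fold (2.70 to 2.92) and the BPS library 2.29-fold (2.20 to 2.37). For Serpina3m the ratios were 3.62 (2.94 to 4.46) for BPA, 2.97 (2.45 to 3.60) for BPF and 2.71 (2.25 to 3.27) for BPS. With 1 library per treatment these intervals cover counting error only, and they do not show how far a second culture would differ. In edgeR's fit of stage by class, in which the lone DMSO library is assumed to vary like the others, the bisphenol class was lower by log2 values of -1.48 ± 0.13 (SE) for Serpina3n and -1.66 ± 0.31 for Serpina3m. In that fit 10.5% of all genes were called lower and 9.14% higher (adjusted p below 0.05, with no minimum change), and no call is given for the members. The 4 libraries of EB day 20 had the 4 lowest total counts of the series, from 9574833 with DMSO to 9879782 with BPF.

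The compounds differ in the group that bridges their phenol rings, which is an isopropylidene group in BPA, a methylene group in BPF and a sulfonyl group in BPS. At 100 nM and day 20, Serpina3n with BPA was 0.746 of its level with BPS (0.712 to 0.782), with BPF 0.814 of it (0.777 to 0.852), and with BPA 0.917 of that with BPF (0.873 to 0.963). For Serpina3m the ratio was 0.75 for BPA over BPS (0.586 to 0.956), 0.913 for BPF over BPS (0.725 to 1.15) and 0.821 for BPA over BPF (0.639 to 1.05). The last 2 intervals include 1. These are single libraries, so no ratio between compounds can be tested against replicate error.

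Summing the whole cluster removes the division of reads between its genes, but the sum is mostly Serpina3n. Serpina3n took 92.1% to 92.5% of the expected counts of all 10 listed Serpina3 genes at EB day 20, and Serpina3m 3.55% to 4.23%. Fractional counts, which arise where reads are divided between genes, were present for Serpina3m in 4 of 4 day 20 libraries and for Serpina3n in 3 of 4. Summed over the cluster the counts were 9985, 3315, 3675 and 4464 for DMSO, BPA, BPF and BPS, each within 0.02 of a whole number. For this sum the DMSO library exceeded BPA 3.07-fold, BPF 2.80-fold and BPS 2.28-fold. These follow the ratios of Serpina3n and lie below those of Serpina3m, so they do not test how reads shared with other genes bear on Serpina3m. Serpina3m made up 4.38% of the counts of the pair with DMSO (95% exact binomial interval 3.98 to 4.80), 3.73% with BPA (3.10 to 4.45), 4.15% with BPF (3.52 to 4.87) and 3.71% with BPS (3.17 to 4.33), and these intervals overlap.

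**Figure D2:**
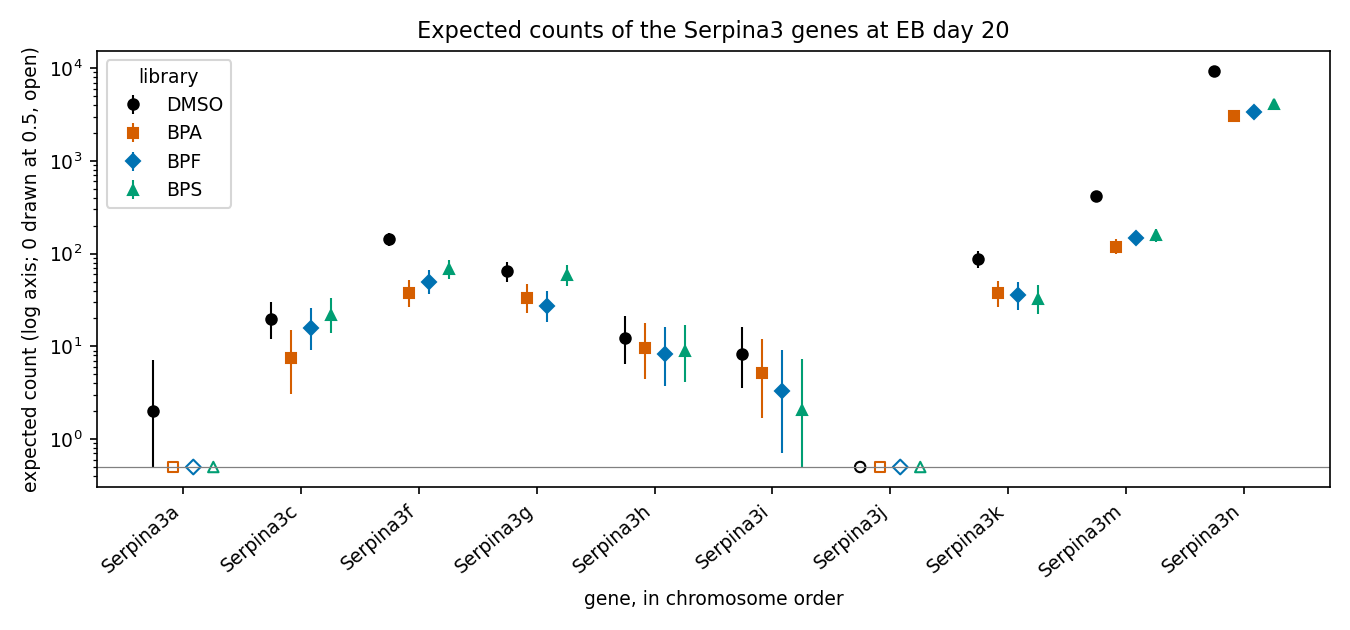
Expected counts (log axis) of the 10 listed Serpina3 genes in the 4 EB day 20 libraries, in chromosome order, with 95% Poisson intervals for counting error and counts of 0 as open symbols at 0.5. Serpina3n holds 3066 to 9226 reads and Serpina3m 118.8 to 422.1, and the DMSO library is the highest for these genes and for Serpina3k, Serpina3f and Serpina3g.

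The other Serpina3 genes were scarce and were read by the same assignment of reads, so they are no independent evidence. Serpina3f stood at 7.35 FPKM with DMSO, 1.89 with BPA, 2.48 with BPF and 3.41 with BPS at EB day 20, and at a mean of 0.0625 ± 0.0479 (SD, n = 4) at day 12. Serpina3k stood at 5.57, 2.33, 2.19 and 2.02 in the same order and was not listed at day 12. Serpina3g stood at 3.31, 1.68, 1.37 and 2.97, and its ratio between DMSO and BPS was 1.11 (0.764 to 1.60). Serpina3c stood at 1.22, 0.45, 0.96 and 1.34, so it was higher with BPS than with DMSO, with a ratio of 0.907 (0.48 to 1.78), and it was too scarce to be tested. In edgeR, Serpina3f (-1.53 ± 0.38, adjusted p = 0.00639) and Serpina3k (-1.40 ± 0.38, adjusted p = 0.0149) fell with bisphenols, and Serpina3g (-0.76 ± 0.50, adjusted p = 0.302) was not called. With DESeq2 Serpina3f was not called (adjusted p = 0.284) and Serpina3k was given no adjusted p. Serpina3f, Serpina3g and Serpina3k passed the filter on low counts only through EB day 20, so without the libraries of any 1 treatment they could not be tested.

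Of the 23 other clade A serpins on the list, 20 were listed in a library and 8 could be tested. Since Serpina3f, Serpina3g and Serpina3k were among these only through EB day 20, a rise to that day was fixed by the filter and is not counted. Of the others, Serpina3i rose from EB day 12 to 20 by 1.83 on the log2 scale, and Serpina1a, Serpina1c and Serpina1d, which encode alpha-1-antitrypsins, fell. The rise of Serpina3i was near the floor, from 2 to 18.8 reads summed over the libraries of a stage. ESCs held more of it, at 65.5 reads, so its course was not that of the members. Serpina3i could not be tested with a minimum of 5 CPM or without any 1 treatment, and was not called by limma on log2(FPKM + 1). Of 14 serpins of other clades that were tested, 6 rose and 0 fell from day 12 to 20, beside 17.4% and 8.66% of all genes. With bisphenols at day 20, 7 of the 14 were higher and 1 was lower, beside 9.14% and 10.5% of all genes. Their median was 0.80 beside -0.06 over all genes. Serpinf1, which encodes the antiangiogenic factor PEDF, was higher with bisphenols by 2.76 ± 0.24 (adjusted p = 5.22e-09 in edgeR), at 4.85 FPKM with DMSO against 30.7 to 37.7. Serpinb1a, an inhibitor of neutrophil proteases, was lower by -1.16 ± 0.22, at 10.6 FPKM against 4.50 to 5.13.

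The proteases that Serpina3n is known to inhibit were scarce or absent. Gzmb and Cma1 were not listed in any library, Ctsg was not listed at EB day 20, and Elane reached at most 0.11 FPKM there. Prtn3, which encodes proteinase 3, stood at 2.93 FPKM with DMSO and 1.26 to 2.24 with bisphenols, and Mmp9 at 0.78 and 0.60 to 1.15. Neither Prtn3 nor Mmp9 was called between days 12 and 20 or between bisphenols and DMSO.

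Genes of the gp130 pathway were compared as a list. Among its ligands, Lif rose from EB day 12 to 20 by 2.04 ± 0.22. Il6 was at most 0.19 FPKM at day 20 and Osm at most 0.11. Among 13 receptors and transducers 4 rose and 0 fell, beside 17.4% and 8.66% of all genes. The oncostatin M receptor gene Osmr rose by 4.60 ± 0.48, Stat3 from a mean of 13.6 to 41.4 FPKM, the gp130 gene Il6st by 1.30 ± 0.17, and Il6ra also rose. Of 11 STAT3 target genes 7 rose and 1 fell, with a median of 1.46 beside -0.003 over all genes. Socs3, the feedback inhibitor of the pathway, rose by 1.97 ± 0.13 and Fos by 2.66 ± 0.24, each past the edgeR threshold, as were the other calls of this paragraph.

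With bisphenols at EB day 20 these genes did not move as a group. None of 7 ligands was called in edgeR, where 1 had an unadjusted p under 0.05, or in DESeq2, and Lif stood at 3.09 FPKM with DMSO and 2.72 to 3.52 with bisphenols. Il6st was higher with bisphenols (0.96 ± 0.09, adjusted p = 5.56e-08 in edgeR), as were Osmr (1.05 ± 0.34) and Il11ra1 (1.08 ± 0.21), while Jak2 (-0.42 ± 0.11) and Cntfr (-0.46 ± 0.11) were lower. Stat3 did not pass (-0.06 ± 0.10, adjusted p = 0.745 in edgeR). Of the 11 STAT3 targets 0 were higher and 2 were lower, beside 9.14% and 10.5% of all genes, and nothing is read from these counts. Without BPS Socs3 alone was called. Socs3 stood at 40.2 FPKM with DMSO, 22.4 with BPA, 26.7 with BPF and 32.9 with BPS, and was lower by -0.61 ± 0.13. Fos was lower by -0.73 ± 0.22. The median of the targets was -0.02, beside -0.06 over all genes.

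Of 9 NF-kB pathway genes, 1 rose from EB day 12 to 20 (Ccl2), and with bisphenols 2 were higher, Ccl2 (4.03 ± 1.09) and the interleukin-1 receptor gene Il1r1 (3.01 ± 0.43). Without BPF or without BPS Il1r1 alone was called. Tnf was not listed in any EB day 20 library. Of 9 glucocorticoid response genes, 2 rose and 1 fell from EB day 12 to 20. Over all genes 17.4% rose and 8.66% fell, so the stage counts of both lists are near those shares. With bisphenols the receptor gene Nr3c1 was higher (0.62 ± 0.15) and Fkbp5 lower (-0.53 ± 0.09), while Tsc22d3 was not called (-0.19 ± 0.15). Calls with bisphenols stand beside the shares over all genes given above, and nothing is read from them about either list.

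Astrocyte genes rose at the same stage as the members. Of 16 tested astrocyte markers, 11 rose from EB day 12 to 20 and 0 fell, beside 17.4% and 8.66% of all genes. Their median was 2.59 beside -0.003 over all genes. Gfap and Ntsr2 are in these values but passed the filter on low counts only through EB day 20, so their rise was fixed by it. Without the DMSO libraries 7 rose, and Gfap and Ntsr2 could then not be tested, as with any 1 treatment left out. Gfap, the intermediate filament gene of astrocytes, went from 0.19 to 316 ± 13.6 FPKM (SD, n = 4), and the water channel gene Aqp4 rose by 6.78 ± 0.26. Of 31 genes known from reactive astrocytes, 16 rose, Gfap among them, and 1 fell, with a median of 1.11. Levels within that list were uneven at day 20. Lcn2 stood at 0 to 0.49 FPKM and Steap4 at 0.07 to 0.68, while Timp1 averaged 13.2, Cd44 12.2 and Srgn 74.4. Of the 35 listed genes 1 was at 0 with DMSO, 2 with BPA, 0 with BPF and 0 with BPS.

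With bisphenols at EB day 20 single astrocyte markers were called in both directions, and their part in the difference of the members was not tested. Gfap stood at 328 FPKM with DMSO, 302 with BPA, 307 with BPF and 328 with BPS, and did not pass the test between bisphenols and DMSO (-0.13 ± 0.11, adjusted p = 0.472 in edgeR). The level of Serpina3n was 1.41 times that of Gfap in the DMSO library and 0.499, 0.536 and 0.616 times that with BPA, BPF and BPS. Of the 16 astrocyte markers 4 were higher and 2 lower with bisphenols, beside 9.14% and 10.5% of all genes, so the lower count is near that share. Aqp4 was higher (0.96 ± 0.19) and the glutamate transporter gene Slc1a2 lower (-0.69 ± 0.12). By limma on log2(FPKM + 0.1) 2 of the 16 were called in all. Besides Slc1a2, Clu was the marker called lower, at 307 FPKM with DMSO and 190 to 265 with bisphenols. Summed over the list, the astrocyte markers were at 1702 FPKM with DMSO and 1762 to 1876 with bisphenols, and S100b was at 0 to 0.18. Abundant genes such as Gfap, Atp1b2 and Apoe weigh most in that sum. Of the 31 reactive astrocyte genes 9 were higher and 4 lower, among them ceruloplasmin (Cp, 2.13 ± 0.35). Here too the lower count is near the share over all genes. Cp was higher, and those lower were B3gnt5 (-0.64 ± 0.12), Ggta1 (-0.56 ± 0.11), Fkbp5 (-0.53 ± 0.09) and H2-D1 (-0.41 ± 0.12). In bulk RNA, fewer cells of a type and less RNA per cell cannot be told apart.

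**Figure D3:**
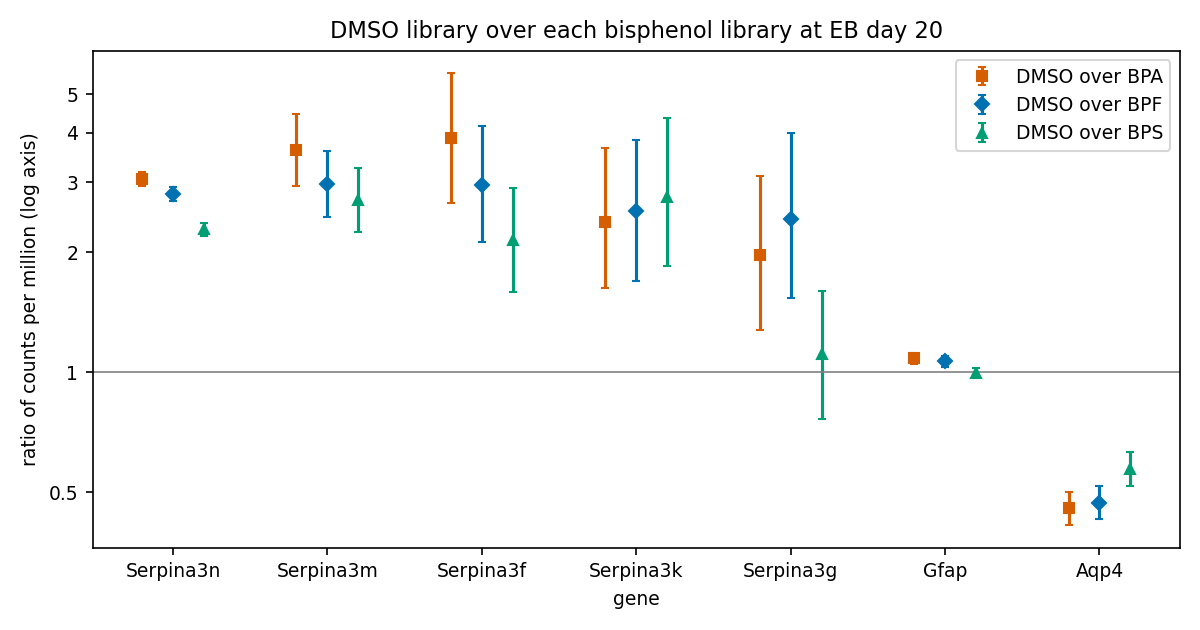
Ratio of CPM (log axis) between the DMSO library and each bisphenol library at EB day 20, with 95% intervals for counting error only. Serpina3n and Serpina3m lie between 2.29 and 3.62, Gfap between 0.997 and 1.08 and Aqp4 between 0.455 and 0.572.

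Markers of several other cell types moved with the same libraries. The shares of all genes called in this comparison are given above, and counts near them, as for endothelial genes, are no result about a list. Of 14 mesenchymal genes, 12 were higher with bisphenols at EB day 20 and 0 lower, with a median of 2.90. Their summed level was 298 FPKM with DMSO against 1890, 2265 and 2246 with BPA, BPF and BPS, and none was at 0. Col1a1, the chain of type I collagen, stood at 34.8 FPKM with DMSO and 378 to 504 with bisphenols. Of 10 neuronal genes 0 were higher and 4 lower, with summed levels of 1552 FPKM with DMSO and 1242 to 1471 with bisphenols; 9 were called without BPA and none by limma on log2(FPKM + 0.1). Of 5 tested microglial genes 2 were higher, Cx3cr1 and Tmem119, the latter at 0.64 FPKM with DMSO and 8.12 to 8.71 with bisphenols, and 5 were called without BPA and 1 without BPF. Over all 12 microglial genes the summed level was 8.52 FPKM with DMSO, where 3 were at 0, and 17.1, 41.7 and 48.0 with BPA, BPF and BPS. Tmem119 alone gave 8.71 of the sum with BPA, and it already averaged 8.47 FPKM at EB day 12, where Cx3cr1 averaged 0.32. At EB day 20 C1qb went from 0.10 FPKM with DMSO to 8.64 with BPS, but Aif1 reached at most 0.36 and P2ry12 0.17. Tmem119 is thus no guide to the list. Of 6 tested genes of ependyma and choroid plexus, the cilia genes Foxj1 (1.63 ± 0.20) and Rsph1 (adjusted p = 0.000196 in edgeR) were higher, and Otx2 (-0.78 ± 0.14) and Clic6 (-0.91 ± 0.26) were lower. Foxj1, a regulator of motile cilia, stood at 7.14 FPKM with DMSO and 19.7 to 26.7 with bisphenols, while the list's sum was 118 with DMSO and 111 to 168 with bisphenols. Of 10 endothelial genes 2 were higher, among them Cdh5 (2.02 ± 0.72), with 5 called without BPA and no call without BPF, and sums of 25.6 FPKM with DMSO and 24.6 to 37.4 with bisphenols. Of 10 proliferation genes 4 were higher. The part of these differences in the level of the members was not tested. Of 15 hepatocyte and acute phase genes 0 were higher and 1, A2m, was lower (-0.70 ± 0.12). Alb, the defining gene of hepatocytes, stood at 0.71 FPKM with DMSO, 0 with BPA, 0.49 with BPF and 0 with BPS. It does not stand for the list, since Afp stood at 26.0, 8.17, 110 and 6.93 FPKM in the same order. Summed over the 24 listed genes the level was 111, 58.4, 263 and 77.1 FPKM, with 7, 7, 5 and 5 genes at 0.

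**Figure D4:**
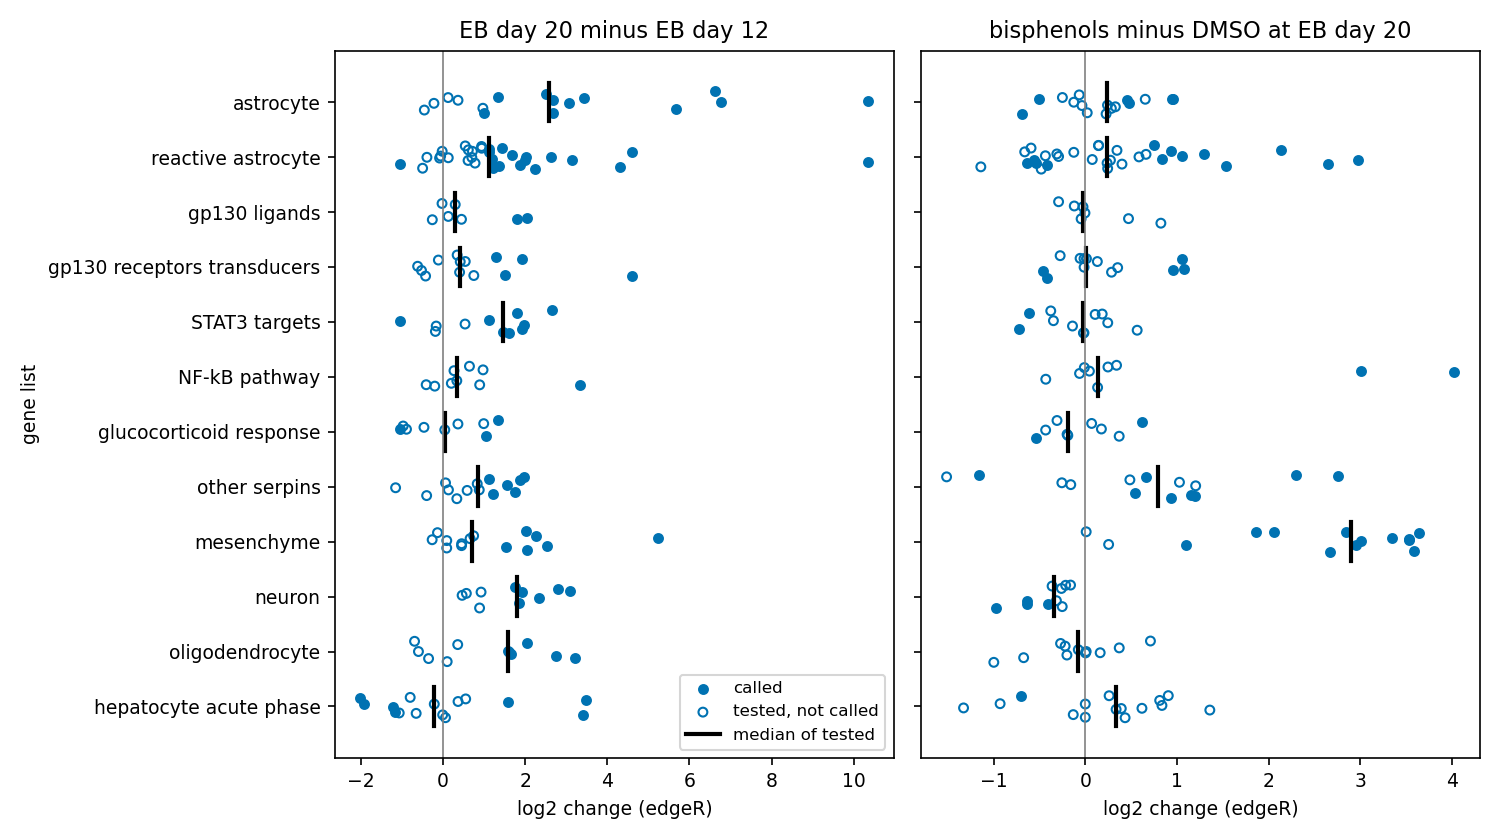
Fitted log2 change of each tested gene by list, from EB day 12 to 20 (left) and between bisphenols and DMSO at EB day 20 (right), without the members, with filled points for genes called, open points for genes not called and bars for medians. Astrocyte genes, with Gfap and Ntsr2 included, have a median of 2.59 on the left and 0.24 on the right. Mesenchymal genes have 0.70 on the left and 2.90 on the right.

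Outside EB day 20 the members were too scarce for the planned filter, and the bisphenol difference could be fitted only with all genes kept. Over the 7 libraries of each treatment, Serpina3n summed to 30 reads with DMSO, 13.04 with BPA, 9 with BPF and 17 with BPS. The DMSO library was above the mean of the bisphenol libraries at 5 of 7 stages and below it at 1. In edgeR the bisphenols were lower by -0.89 ± 0.34 (SE, 95% interval -1.55 to -0.22), which did not pass over 20318 genes (adjusted p = 0.251), where 0.94% of genes were called. Without the NPC libraries the estimate was -0.59. The choice of the genes names a lower level with bisphenols without a stage, so this test is not sure to be independent of it. Nothing is therefore read from the fit or from the count of stages. Serpina3m had 0 reads with DMSO, 4 with BPA, 4 with BPF and 0 with BPS, and its estimate of 0.45 ± 0.25 (adjusted p = 0.502 in edgeR) has no reads on the DMSO side.

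Between the compounds, 3 pairs were fitted for each gene over the same 28 libraries, again with all genes kept. Of all genes, 0.0% were called between BPA and BPF, 0.00492% between BPA and BPS and 0.0% between BPF and BPS. None of the 6 values passed, with p-values adjusted over these 6 of 0.324 to 0.959 in edgeR and 0 of 6 with an unadjusted p under 0.05. For Serpina3n the difference between BPA and BPS was -0.34 (95% interval -1.23 to 0.56), between BPF and BPS -0.60 (-1.51 to 0.31), and between BPA and BPF 0.26 (-0.63 to 1.16). These intervals include changes of more than a log2 unit, so they do not show that the compounds act alike.

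By the Pearson correlation of log2(FPKM + 1) over the 32 libraries, the pair had r = 0.991. Among 11767 other genes with a stage mean of at least 5 FPKM, the closest to Serpina3n were Slc4a10 (0.995), a bicarbonate transporter gene, Gfap (0.994), Plppr4 (0.993), Ntsr2, Scrg1, Gng4, Gkn1, B230209E15Rik, Grin3a and Hpcal4. Of the 10 closest to Serpina3m, 8 were in that list, and Cryaa and Itga7 were not. Each of these 12 genes had a mean of 5.37 FPKM or more at EB day 20 and at most 0.86 at any other stage. At EB day 20 all 3 bisphenol libraries lay below the DMSO library for Slc4a10, Gng4, Hpcal4, Cryaa and Itga7. All 3 lay above it for Ntsr2, Scrg1, B230209E15Rik and Grin3a, and on both sides of it for Gfap, Plppr4 and Gkn1. The share over all genes was not computed, and the genes were picked with these libraries included, so nothing is read from this. Cryaa, a lens crystallin gene, had a DMSO level at EB day 20, of 11.7 FPKM, above those with BPA (3.18), BPF (1.73) and BPS (4.82). Scrg1 stood at 12.2 FPKM with DMSO and 13.7 to 18.4 with bisphenols. The likeness rests on the EB day 20 libraries, since without them the correlation of Serpina3n with Serpina3m was -0.09, and by Spearman's rank it was 0.40 over all 32.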

How the data were processed

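RNA for 32 libraries was extracted with Trizol and a column kit and sequenced at BGI, per the labels' protocols. The authors deposited, for each library, an expected count (the estimated reads of a gene, not normalised) and an FPKM value. Bowtie2, HISAT and RSEM, and the build mm10, are named without version or role in the processing notes of the submitters. The lowest listed FPKM was 0.01, and a gene not listed in a library was set to 0. Library totals lay between 9574833 and 11070149 expected counts, with 16326 to 17839 genes listed in each. Groups were taken from the labels. Of 20612 genes, 20551 matched RefSeq by identifier, 9 by transcript and 52 not.

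Rounded expected counts were fitted with edgeR 4.0.16 (quasi-likelihood test, R 4.3.3) over all genes, with TMM scaling, a minimum of 1 CPM (counts scaled to library size) in at least 4 libraries (15632 genes) and Benjamini-Hochberg adjustment. Stages had 24 residual degrees of freedom, stage by class 16, and the 28 libraries outside EB day 20 had 20 with a term for stage and class and 18 with treatments. The SE was derived from the F value. The members fail that minimum outside EB day 20, so the fit designed for that comparison gives them no value there, and their values come from a fit with all genes kept. Alternatives were DESeq2 1.42.0, limma 3.58.1 with trend on log2(FPKM + 1) and log2(FPKM + 0.1), other minimums, left-out libraries and summed genes. Poisson and binomial intervals used a confidence level of 95% and cover counting error only, since PCR copies are not independent molecules. On simulated data with changed genes at log2 1 and 2, 43% and 97% were recovered for EB day 12 to 20, 71% and 96% for class at EB day 20 (15632 genes each), and 98% and 100% for class outside it (15281 genes). The changed genes were drawn only from those averaging at least 5 CPM, and no differences between stages were simulated. Outside EB day 20 the members had at most 0.411 CPM per treatment, so these shares say nothing about them there.

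The members and lists were chosen with earlier results of these data known, and the motifs later still. The named genes are the members, serpins with a stage mean of at least 1 FPKM, the 10 most alike genes per member, up to 4 called genes per list by size of change (at least 1 FPKM), and pathway ligands, receptors and Socs3. Genes named as absent or not called, and the other marker genes with values, were added after their values were seen. Some results that the rule would name are not reported here.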

Additional observations from a re-analysis of the deposited data

Results flagged for a closer look

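Over the 4 libraries of each stage, the gap between the highest or lowest library and its neighbour was set against the whole range in the 12 gene and stage combinations with any spread; chance passes the 95% limit of Dixon's test in about 1 of 20 such groups, and the 4 libraries of a stage carry different treatments and are not replicates. At EB day 20 the DMSO library stood apart for Serpina3n (gap over range 0.835) and for Serpina3m (0.873), which is the difference on which the genes were chosen. For Serpina3m the value was 1.0 at EB day 4, 1.0 at EB day 6 and 1.0 at EB day 12, where 1 library held 1, 1 and 2 reads and the other libraries held 0.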

How the results depend on the processing

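Of 112 recomputed stage changes of the members, 108 kept direction and call. From RA EBs to NPCs, Serpina3n was called with DESeq2 (2.37). From EB day 4 to RA EBs its estimate turned to -0.09 with both genes summed, and leaving out 1 treatment gave -0.1 (without BPA) to 0.41 (without BPS). Between BPA and BPF outside EB day 20, leaving out 1 stage moved Serpina3m from -0.3 to 0.35, on 8 reads in all. The cause was not tested. With stretches of 50 bases the shared parts rose to 6.9% and 19.07%, as shorter stretches must share more. The 8 recomputed ratios at EB day 20 moved by less than the spread between bisphenol libraries. The number of genes called from EB day 12 to 20 was 4073, and 2635 by limma on log2(FPKM + 1). At EB day 20 between bisphenols and DMSO it was 3064, and 1396 without BPF, where the share of higher calls also grew (862 higher, 534 lower, against 1428 and 1636). Outside EB day 20 it was 181 with the minimum and 11 to 13 by limma. With all genes kept it was 191, and then 20 without EB day 9 and 585 without NPCs. Of 324 recomputed list counts, 275 stayed within 1.5 times. Those of the clade A serpins moved most often, in part because without 1 treatment their EB day 20 reads no longer pass the minimum. The planned fits with a minimum on the 28 libraries give the members no value, and leaving out stages was run with all genes kept instead. The same treatments recur at every stage, and a fit with treatment as a block changed only the call from RA EBs to NPCs (1.65) among the stage changes. Depth limits every statement on the members outside EB day 20, where Serpina3n had at most 13 reads in a library.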
